A study of Saccharomyces cerevisiae BY4741 with 8 samples.

Results

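The genes described here are those of the proteins of the cytosolic ribosome of Saccharomyces cerevisiae, chosen by name: every gene of the deposited tables whose standard symbol is RPL (large subunit) or RPS (small subunit) followed by a digit. There were 130 of them among 5782 genes, 74 of the large subunit and 56 of the small subunit. The annotation of the R64 reference holds 132 genes with such a symbol, and the remaining 2, RPL41A (YDL184C) and RPL41B (YDL133C-A), have no row in the tables analysed. RNA of the laboratory strain BY4741 and of its YRR1 deletion strain, BY4741(yrr1Δ), was sequenced from cultures in SD medium without vanillin or with vanillin at 5 mM, 2 libraries in each of the 4 groups and 8 in all, with 2195324 to 2453837 expected counts a library. Yrr1p is a transcription factor that activates multidrug resistance genes, and vanillin is an inhibitor of yeast growth released from lignocellulose. Both strains are MATa and carry the same his3, leu2, met and ura3 deletions, and in BY4741(yrr1Δ) the YRR1 reading frame was also replaced by a KanMX marker. Growth began from an OD600 of 0.2 and cells were taken at 1.6 to 2.0, and no source used here says whether more than 1 deletion clone was examined. YRR1 itself had 73 to 100 counts in the 4 libraries of BY4741 and 0 to 2 in the 4 of BY4741(yrr1Δ).

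The cytosolic ribosome joins a large subunit, which holds the peptidyl transferase centre, and a small subunit, which decodes the mRNA. In budding yeast most ribosomal proteins are encoded by a pair of duplicated genes, A and B, whose products are identical or nearly so. Transcription of most of these genes depends on Rap1, Fhl1, Ifh1 and Sfp1 and follows nutrient signals through TORC1, Sch9 and protein kinase A. Several of the genes, RPL22B, RPL30 and RPS14B among them, are also held down by their own protein at the RNA.

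Of the 130 genes, 56 pairs make up 112 and 18 have a single copy, so that 74 proteins are covered. An intron interrupts the coding sequence of 88 genes, 2 of which have more than 1 intron, and 42 have none. The genes lie on 15 chromosomes, and only 3 pairs have both copies on 1 chromosome. The coding sequences of the pairs were 78.9% to 99.4% identical (median 93.2%), which decides how well a short read can be assigned to A or to B. The copies of RPL9 differ at 36 positions of the coding sequence, and they are shown because RPL9A was called and RPL9B was not. RPL1 and RPL35 are shown beside them because their copies differ at only 4 and 3 positions. For each pair the window of 60 coding bases with the most differences is given 5′ to 3′ on the coding strand of the R64 reference, and capitals mark the bases that differ between A and B.
RPL9A (chrVII:227757-227816, minus strand, coding positions 514 to 573, no intron in the gene): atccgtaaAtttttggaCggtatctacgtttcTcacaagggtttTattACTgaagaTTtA
RPL9B (chrXIV:500194-500253, plus strand, coding positions 514 to 573, no intron in the gene): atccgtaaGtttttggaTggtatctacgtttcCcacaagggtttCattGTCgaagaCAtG
RPL1A (chrXVI:135790-135849, plus strand, coding positions 1 to 60, no intron in the gene): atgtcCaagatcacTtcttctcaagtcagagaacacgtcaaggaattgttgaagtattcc
RPL1B (chrVII:254641-254700, plus strand, coding positions 1 to 60, no intron in the gene): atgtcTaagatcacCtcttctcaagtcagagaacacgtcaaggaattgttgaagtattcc
RPL35A (chrIV:118158-118217, plus strand, coding positions 4 to 63, exonic): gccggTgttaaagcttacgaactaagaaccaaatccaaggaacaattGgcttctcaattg
RPL35B (chrIV:218008-218067, plus strand, coding positions 4 to 63, exonic): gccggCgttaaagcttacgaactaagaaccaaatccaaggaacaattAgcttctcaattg
The RPL9 window holds 10 differences, against 2 in those of RPL1 and RPL35.

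The 500 bases before each start codon were searched on both strands for ACCCNNACA, the core of the Rap1 site, where N is any base. It was found before 52 of the 130 genes (40%), 34 of the 74 large subunit genes and 18 of the 56 small subunit genes, and before 310 of 5725 protein-coding genes of the tables (5.415%). The matches of RPL9A and RPL28 are shown because these are the members with the lowest p in a comparison that carry one, with the motif in capitals, and that of RPL9A lies on the opposite strand so that its reverse complement is printed.
RPL9A (chrVII:228621-228649, minus strand, match starting 310 bases before the start codon): tttccagaaaTGTTTGGGTttatttttta
RPL28 (chrVII:310693-310721, plus strand, match starting 264 bases before the start codon): tacaccagggACCCACACAttaccaaaat
A run of TTTTTTTT or its complement stood before 67 members (51.5%) and 44.7% of all genes. AAAAATTTT, the rRNA processing element, stood before 9.23% of members and 9.71% of all genes, GATGAG, the core of the PAC element, before 22.3% and 28.2%, and AGGGG, the stress response element, before 26.2% and 34.2%. AGGGG and ACCCNNACA can share bases on opposite strands, as can AAAAATTTT and TTTTTTTT, and a match is not a site that was shown to be bound.

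Members were among the most abundant mRNAs of every library. Their median FPKM, a level per length and per library size, was 2388 over all libraries, against 50.97 for all 5782 genes, with 2259 for the large and 2748 for the small subunit. They made up 26 of the 50 genes with the highest mean FPKM, 65 of the first 100 and 103 of the first 200. The highest member was RPS31 (YLR167W, chrXII:498947-499405), which encodes a small subunit protein fused to ubiquitin. Its FPKM was 17365 and 14664 in BY4741 in SD, 16389 and 12778 in BY4741(yrr1Δ) in SD, 15587 and 17380 in BY4741 with vanillin, and 16185 and 13048 in BY4741(yrr1Δ) with vanillin. RPL28, which encodes the protein altered in cycloheximide-resistant cyh2 mutants, followed with 6548 to 10367 and did not overlap RPS31. RPL10, whose protein joins the large subunit late in the cytoplasm, ran from 6211 to 8187, RPL42B from 6116 to 8277 and RPL43A from 5701 to 8022, so that the ranges of these 4 large subunit genes overlap.

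The lowest levels belonged to short genes and to the minor copies of some pairs. RPL39 (YJL189W), which encodes a small protein of the exit tunnel, has a coding length of 156 bases and 0 to 4 counts in any library, and it was the only member that did not pass the filter on low counts. RPS29A and RPS29B, which encode a zinc-binding protein of the small subunit from 171 bases, had mean FPKM of 73.2 and 165. RPL15B and RPL22B, the minor copies of 2 large subunit pairs, had 182 and 197. The 8 members with a coding length under 210 bases had a median FPKM of 299, and the other 122 had 2553. In these tables the length that enters the FPKM was shorter than the coding length by 119 to 148 bases, depending on the library, which leaves few positions for a fragment in such genes, and its part in these low values was not tested.

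When the FPKM of A and B were added, 60 of the 69 proteins encoded by 210 bases or more lay within 2-fold of their median of 4385, with quartiles of 3676 and 6169. RPL38 was the lowest of them at 851 and RPS31 the highest at 15420. The stoichiometry of the ribosome is 1 copy of each of these proteins, and the quartiles of the single genes of that length were 1604 and 3782.

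The share of a library that came from ribosomal protein genes was measured in every sample (share plot). It was 14.5% and 13.1% of the expected counts in BY4741 in SD, 13.5% and 11.4% in BY4741(yrr1Δ) in SD, 12.6% and 12.3% in BY4741 with vanillin, and 12.5% and 12.9% in BY4741(yrr1Δ) with vanillin. The lowest and the highest value both came from cultures in SD, and the vanillin libraries lay between them. The deletion strain differed from BY4741 by -1.38 percentage points in SD and by 0.23 with vanillin (exact permutation test, two-sided, p = 0.667 for each, n = 2 per group). Vanillin changed the share by -1.36 points in BY4741 (p = 0.333) and by 0.26 in BY4741(yrr1Δ) (p = 1.0) in the same exact permutation test. With 2 libraries against 2 the test cannot give a p below 0.333, and the pooled SD between replicates was 0.92 points. Without replicate 1 of BY4741(yrr1Δ) in SD the strains differed in SD by -2.44 points and the vanillin difference in BY4741(yrr1Δ) was 1.32, and without its replicate 2 these were -0.32 and -0.81. With each library left out in turn the vanillin difference in BY4741 was -2.05 to -0.67 points, the nearest to 0 without replicate 1 and the furthest without replicate 2 of BY4741 in SD, and that between the strains with vanillin was 0.0087 to 0.46. In RNA of whole cultures, fewer cells that hold a transcript and less of it per cell cannot be told apart.

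**Figure D1:**
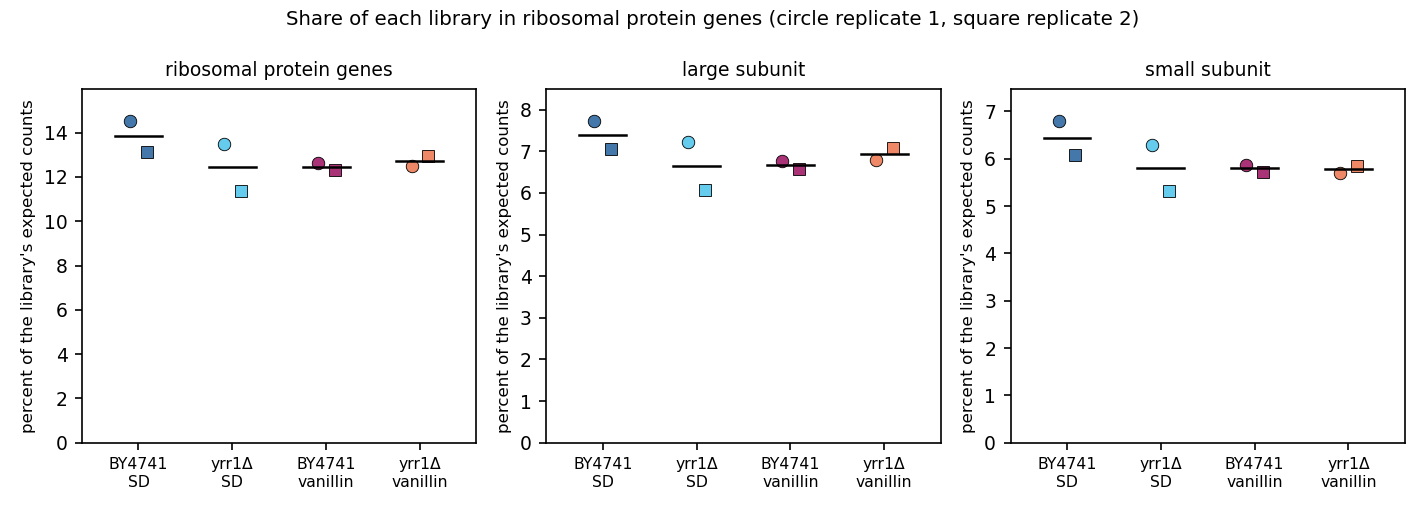
Percent of each library's expected counts in ribosomal protein genes and in the genes of each subunit, with circles for replicate 1, squares for replicate 2 and bars for the mean of the 2 libraries. Replicate 2 of BY4741(yrr1Δ) in SD is the lowest at 11.4% and replicate 1 of BY4741 in SD the highest at 14.5%, and the vanillin libraries lie between 12.3% and 12.9%.

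Taken from FPKM, the share was 29.7% ± 1.67 (SD, n = 2) in BY4741 in SD, 26.5% ± 1.89 in BY4741(yrr1Δ) in SD, 27.3% ± 0.15 in BY4741 with vanillin and 29.0% ± 1.12 in BY4741(yrr1Δ) with vanillin. The difference with vanillin in BY4741(yrr1Δ) was then 2.53 points instead of 0.26, and that between the strains with vanillin 1.71 points instead of 0.23 (exact permutation p = 0.333 for each). The length subtracted from the coding length in FPKM was 119 and 136 bases in the SD libraries of BY4741(yrr1Δ) and 136 and 148 bases in its vanillin libraries, and the part of this in the share of short genes was not tested. Counts from the large subunit stood at 1.14 to 1.21 times those from the small subunit in the 8 libraries, with 1.19 and 1.21 in BY4741(yrr1Δ) with vanillin. In FPKM the ratio was 1.137 to 1.196, and those 2 libraries had 1.148 and 1.196, the first of them within the range of the others.

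The 2 replicates of BY4741(yrr1Δ) in SD had the highest and the lowest median level of these genes. Replicate 2 held the lowest CPM (counts scaled to library size, with TMM factors) of 63 of the 129 tested members (48.8%), while it was the lowest for 13.8% of all genes tested. The highest value fell in replicate 1 of BY4741(yrr1Δ) in SD for 51 members (39.5%, against 12.3% of all genes). In replicate 1 of BY4741 in SD it fell for 42 (32.6%, against 11.3%). Over the members, replicate 2 of BY4741(yrr1Δ) in SD had a Pearson correlation of 0.9953 with replicate 1 of BY4741 in SD. With the other replicate of its own group it had 0.9859. The median deviation of the members from their own mean was 0.21 in replicate 1 of BY4741(yrr1Δ) in SD and -0.22 in its replicate 2, both log2, so that these 2 replicates differed more than any pair of group means. Every comparison with BY4741(yrr1Δ) in SD rests on that spread.

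The first comparison asked whether loss of YRR1 changed these genes in SD. None of the 129 members passed an FDR of 0.05 by edgeR's quasi-likelihood test, where 0.0182% of the 5506 genes tested did, and none passed the limits of the study, a fold change of at least 2 with an FDR of at most 0.001, which 0% of all genes did. At an unadjusted p under 0.05 there were 0 members as well, against 1.78% of all genes, and DESeq2 called 0 (0.0182% of all genes). The median log2 fold change of members was -0.09 (all genes: -0.01), with 93 of 129 below 0, and those of the large and small subunit were -0.13 and -0.06. All 129 values were within 1.5-fold, as were 5219 of the 5506 genes tested. For 122 members (94.6%) the 95% interval stayed within 2-fold, against 77.9% of all genes. Leaving out replicate 1 of BY4741(yrr1Δ) in SD gave a median of -0.32, and leaving out its replicate 2 gave 0.11.

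Of the members with the smallest p in SD, none passed. RPS29B had a log2 fold change of 0.57 ± 0.40 (SE, edgeR FDR = 1), RPL29 of 0.47 ± 0.35 and RPS28A of 0.40 ± 0.31, and all 3 are short genes, RPS29B with only 5.18 to 14.4 CPM in the 8 libraries. RPL5, which encodes a protein bound to 5S rRNA, had -0.26 ± 0.15, RPL16B -0.27 ± 0.16 and RPL9A -0.31 ± 0.19. Without replicate 1 of BY4741(yrr1Δ) in SD the value of RPS28A went to -0.11 and that of RPL29 to 0.04. That of RPL9A was -0.10 without replicate 1 and -0.51 without replicate 2 of BY4741 in SD, where RPL29 had 0.18 and 0.81.

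With vanillin the strains were compared in the same way. No member passed an FDR of 0.05 by edgeR's quasi-likelihood test (0.618% of all genes) or the limits of the study put on that test (0% of all genes), and 12 of 129 had an unadjusted p under 0.05, where 22.9% of all genes did. DESeq2 also called 0 members, and 4.67% of all genes. The median was -0.12 (all genes: -0.01), with 88 below 0, and it was -0.12 for the large and -0.13 for the small subunit. The 95% intervals of 111 members (86%) lay within 2-fold, against 60.9% of all genes. Library size in place of TMM moved the median of all genes to 0.14 and that of the members to 0.03, so that the members' position below all genes held while the sign did not.

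RPL28 (YGL103W, chrVII:310967-311927, an intron in the coding sequence) came nearest to a call between the strains with vanillin. Its CPM was 2934 and 2720 in BY4741 in SD, 3725 and 2420 in BY4741(yrr1Δ) in SD, 3305 and 3401 in BY4741 with vanillin, and 2017 and 2108 in BY4741(yrr1Δ) with vanillin. The vanillin libraries of the deletion strain were thus the lowest of all 8, and those of BY4741 were above every library but 1. The log2 fold change between the strains with vanillin was -0.70 ± 0.21 (SE, edgeR FDR = 0.12). RPL28 passed with an edgeR FDR of 0.035 when only the 4 vanillin libraries were fitted, a fit that called 0.775% of members and 5.8% of all genes. Without replicate 2 of BY4741(yrr1Δ) in SD the log2 fold change was -0.70. RPS23A, which encodes a protein of the decoding centre, had -0.54 ± 0.20 (edgeR FDR = 0.16), and RPL35A, which encodes a protein at the exit of the tunnel and whose counts were split from RPL35B by estimate, -0.51 ± 0.19 (edgeR FDR = 0.17). On the other side stood RPL6A with 0.34 ± 0.16, RPL16B with 0.31 ± 0.16 and RPL9A with 0.37 ± 0.19, at edgeR FDRs of 0.24 to 0.29.

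**Figure D2:**
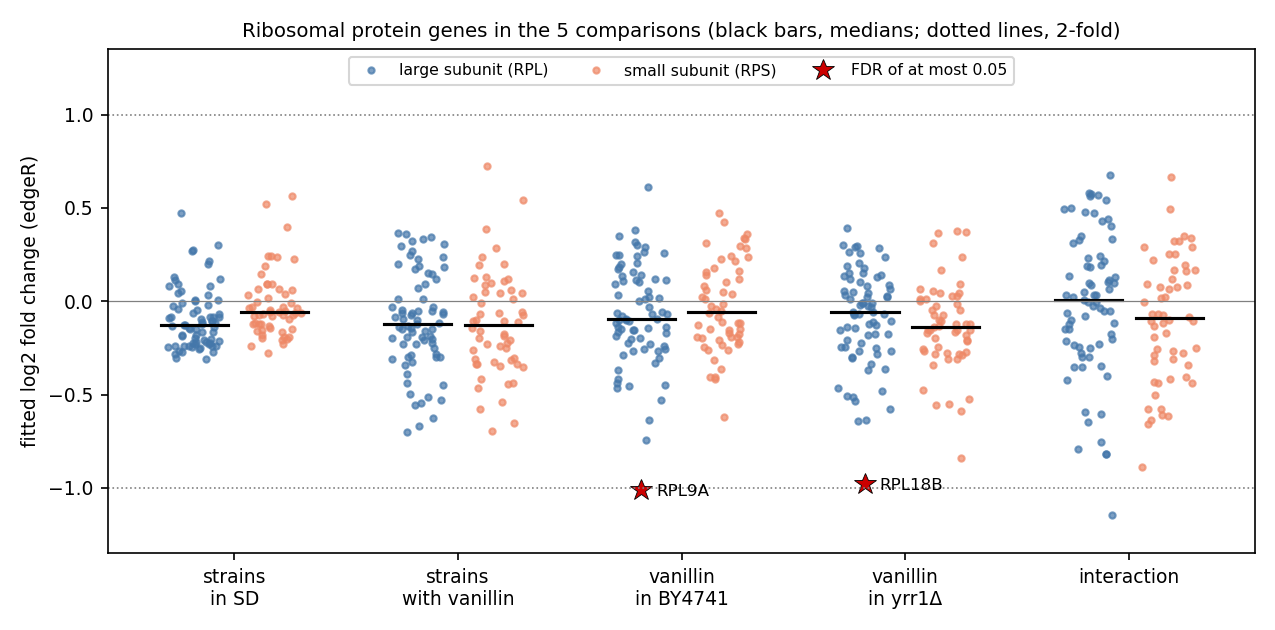
Fitted log2 fold change of each tested member in the 5 comparisons (y axis), large subunit in blue and small subunit in orange, with black bars for medians, dotted lines at 2-fold and stars for an FDR of at most 0.05. The points crowd within 1.5-fold, and the stars are RPL9A at -1.01 in BY4741 and RPL18B at -0.98 in BY4741(yrr1Δ).

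The third comparison set vanillin against SD in BY4741. Of 129 members 1 passed an FDR of 0.05 by edgeR's quasi-likelihood test, RPL9A, which fell, where 3.14% of all genes passed. None reached the limits of the study (0.182% of all genes), and 11 had an unadjusted p under 0.05 (18.3% of all genes). DESeq2 called 1 member as well, and 5.27% of all genes. The median was -0.08 (all genes: -0.02), with 75 below 0, and the large and small subunit had -0.09 and -0.06. The 95% interval of 116 members (89.9%) stayed within 2-fold, against 62.5% of all genes.

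RPL9A (YGL147C, chrVII:227754-228329, minus strand) encodes a large subunit protein near the binding site of the translation factors. Its CPM was 1600 and 1190 in BY4741 in SD and 625 and 759 in BY4741 with vanillin, and it was 1141 and 1110 in BY4741(yrr1Δ) in SD and 839 and 944 in BY4741(yrr1Δ) with vanillin. The 4 vanillin libraries all lay below the 4 SD libraries. In BY4741 the log2 fold change was -1.01 ± 0.19 (SE), 2.02-fold lower (edgeR FDR = 0.028), and in BY4741(yrr1Δ) it was -0.34 (edgeR FDR = 0.28). The difference between the strains, 0.68 ± 0.27, did not pass (edgeR FDR = 0.21).

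RPL9B (YNL067W), the other copy, did not follow in BY4741. Its CPM was 656 and 711 in BY4741 in SD, 818 and 658 in BY4741 with vanillin, 759 and 529 in BY4741(yrr1Δ) in SD, and 536 and 552 in BY4741(yrr1Δ) with vanillin. The groups of BY4741 overlap, and the log2 fold change there was 0.11 (edgeR FDR = 0.81). Those of BY4741(yrr1Δ) overlap too, with means of 644 CPM in SD and 544 with vanillin. With the counts of A and B added, RPL9 had -0.54 ± 0.17 in BY4741 (edgeR FDR = 0.12), which did not pass. Nor did RPL9A pass without replicate 1 of BY4741 in SD or without either replicate of BY4741 with vanillin, with edgeR FDRs of 0.14 to 0.23 and log2 fold changes of -0.81 to -1.16.

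The fourth comparison set vanillin against SD in BY4741(yrr1Δ). Again 1 member of 129 passed an FDR of 0.05 by edgeR's quasi-likelihood test, RPL18B, which fell, where 11.2% of all genes passed. None reached the limits of the study (0.272% of all genes), and 11 had an unadjusted p under 0.05 (29% of all genes), while DESeq2 called 1. The median was -0.10 (all genes: 0.01), with 85 below 0, and it was -0.06 for the large and -0.14 for the small subunit. With FPKM in limma it was 0.11 (all genes: 0.15). The 95% interval of 111 members (86%) stayed within 2-fold, against 54.2% of all genes.

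RPL18B (YNL301C, chrXIV:63570-64562, minus strand, an intron in the coding sequence) encodes a protein of the large subunit. Its CPM was 296 and 212 in BY4741(yrr1Δ) in SD and 105 and 153 in BY4741(yrr1Δ) with vanillin, and 238 and 292 in BY4741 in SD and 150 and 167 in BY4741 with vanillin. All 4 vanillin libraries lay below all 4 in SD. The log2 fold change was -0.98 ± 0.25 (SE) in BY4741(yrr1Δ), 1.97-fold lower (edgeR FDR = 0.037), and -0.74 in BY4741 (edgeR FDR = 0.16).

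The call of RPL18B was lost when only the 4 libraries of BY4741(yrr1Δ) were fitted (edgeR FDR = 0.089) and without replicate 1 of BY4741(yrr1Δ) in SD or any 1 of the 4 vanillin libraries (edgeR FDR = 0.057 to 0.17). Without replicate 2 of BY4741(yrr1Δ) in SD 8 members (6.2%) passed, RPL18B among them, where 8.29% of all genes did. The other 7 of these were RPL23B, RPL28, RPL35A, RPL43A, RPL43B, RPS14B and RPS17A, with log2 fold changes of -0.68 to -1.24.

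**Figure D3:**
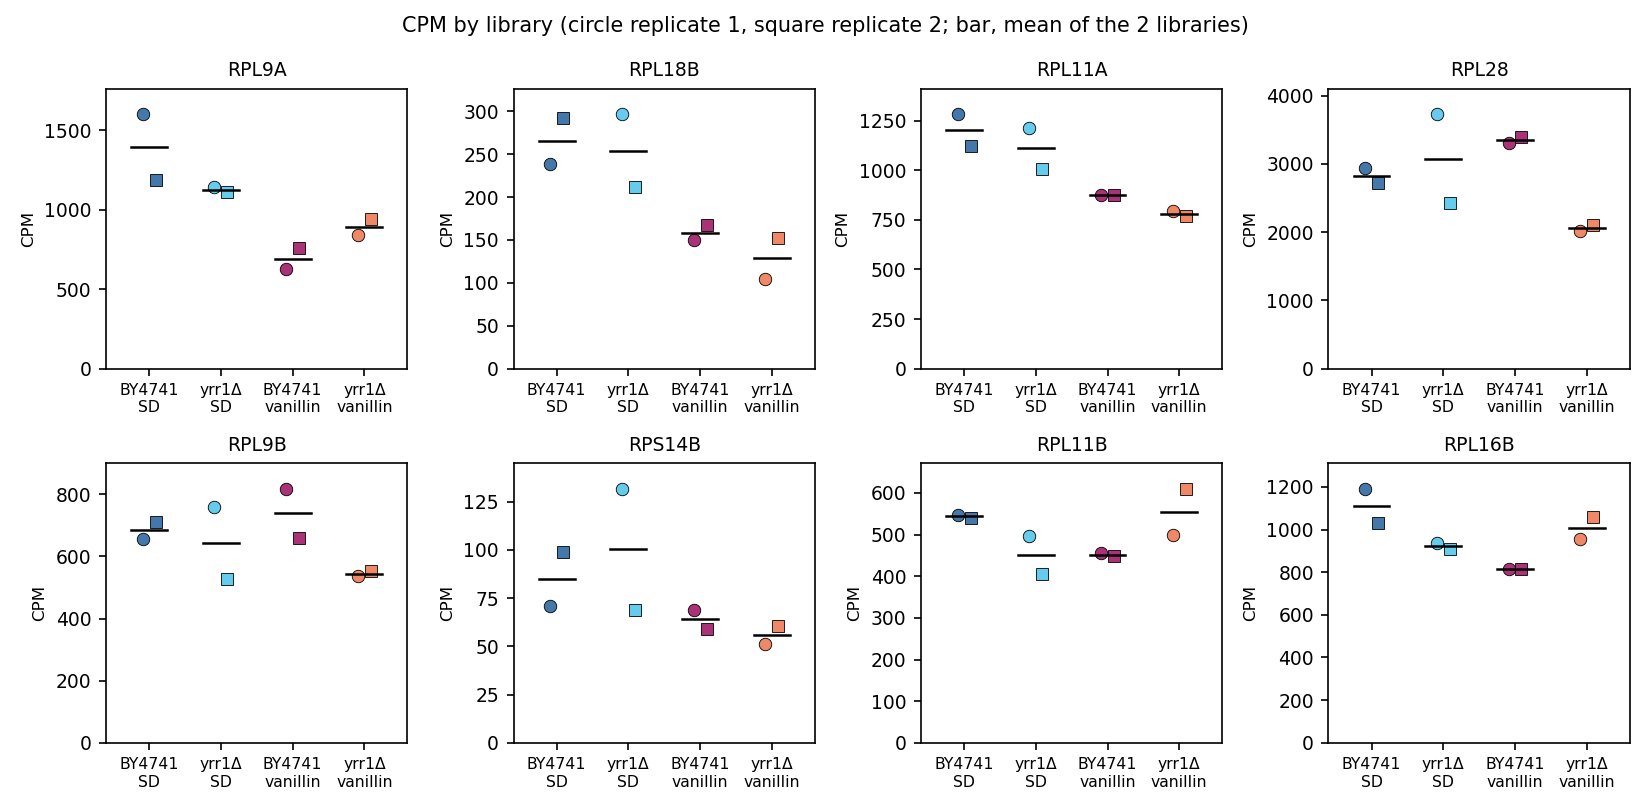
CPM of 8 members in every library (y axis from 0), circles for replicate 1, squares for replicate 2 and bars for the mean of 2 libraries in each group. RPL9A, RPL18B and RPL11A are lower in all 4 vanillin libraries than in all 4 SD libraries, as is RPS14B, the paralogues RPL9B and RPL11B are not, and RPL28 is lowest in BY4741(yrr1Δ) with vanillin.

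The response to vanillin was also compared between the strains, as the interaction of strain and vanillin. No member passed an FDR of 0.05 by edgeR's quasi-likelihood test (0.0908% of all genes) or the limits of the study (0% of all genes). An unadjusted p under 0.05 was found for 8 (20.5% of all genes), and DESeq2 called 0 (3.92% of all genes). The median was -0.04 (all genes: 0.0047), with 69 of 129 below 0, and 0.01 and -0.09 for the large and small subunit. The median of the members was 0.20 without replicate 1 of BY4741(yrr1Δ) in SD, 0.19 with library size alone (all genes: 0.22) and 0.30 with FPKM plus 1 in limma (all genes: 0.24), so that its sign did not hold. The intervals here were wider, and those of 74 members (57.4%) stayed within 2-fold, against 29.9% of all genes.

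The members with the smallest p for the interaction again did not pass. RPL28 had -0.82 ± 0.29, RPL43A, which encodes a zinc-finger protein of the large subunit, -0.82 ± 0.33, and RPS30A, whose protein is made as a fusion with a ubiquitin-like protein in mammals, -0.89 ± 0.37, at edgeR FDRs of 0.17 to 0.22. RPL16B had 0.58 ± 0.22, RPL6A 0.57 ± 0.23 and RPL9A 0.68 ± 0.27, at edgeR FDRs of 0.19 to 0.21. Without replicate 2 of BY4741(yrr1Δ) in SD 4 members (3.1%) passed, RPL23B, RPL28, RPL43A and RPL43B, each with a value below 0, where 1.68% of all genes did. Without replicate 1 of that group none passed, and the values were -0.46 for RPL28, -0.38 for RPL43A and -0.57 for RPS30A.

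Over both strains, 6 of the 129 members (4.65%) had all 4 vanillin libraries below all 4 in SD, where 7.81% of all genes did, and 0 had them all above, where 8.05% of all genes did. The 6 were RPL9A, RPL18B, RPL11A, RPL1A, RPS14B and RPS4A, which were picked out for this pattern after their values were seen. RPL1A, which encodes the protein of the mobile L1 stalk, had 1224 to 1424 CPM in SD and 950 to 1021 with vanillin. RPL11A, whose protein binds 5S rRNA, had 1007 to 1283 and 769 to 878. RPS4A came closest to overlap, with 1957 to 2283 and 1815 to 1953.

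The A and B copies were compared in every library as the log2 ratio of their expected counts per kilobase. A was the higher copy in 36 pairs and B in 20, and the same copy was higher in all 8 libraries in 48 of the 56 pairs. The mean difference was at least 2-fold in 27 pairs and at least 4-fold in 11. The 8 pairs in which the order changed between libraries were RPL1, RPL9, RPL20, RPL21, RPS0, RPS16, RPS21 and RPS29.

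The most unequal pair was RPL15, where A stood 25.8-fold over B, with log2 ratios from 4.28 to 5.23 in the 8 libraries. RPL22 followed with 14.9-fold (3.33 to 4.39), then RPS14 with 11.9-fold (2.77 to 4.09), and RPL7 had 9.04-fold (2.54 to 3.81). Each of these ranges overlaps that of the pair named before it. RPL22B and RPS14B are the copies known for inhibition by their own protein. In RPS9 the order was the opposite, and B stood 7.59-fold over A. The most equal pairs were RPL21 (mean log2 ratio 0.02), RPL1 (-0.07) and RPL20 (0.07).

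Among the pairs whose ratio moved most with vanillin, in the mean over the strains, were RPL7 by 0.68, RPS14 by 0.67, RPL9 by -0.61 and RPS29 by 0.55. The median absolute shift over the 56 pairs was 0.11 and the median SD within groups 0.16.

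RPL7, RPS14 and RPL9 each separated the media in 1 strain and overlapped in the other. Pairs with smaller shifts did so too, such as RPL13 and RPL16 in BY4741 and RPL23 in BY4741(yrr1Δ). Most of the 56 pairs separated the media in 1 strain or in both, so that separation was not particular to those named. Where a pair separated, the exact permutation test gave p = 0.333, the smallest it can give (n = 2 per group). The ratio of RPL7 was 2.97 and 2.67 in BY4741 in SD and 2.95 and 3.61 with vanillin, which overlap, and 2.54 and 3.17 in BY4741(yrr1Δ) in SD and 3.70 and 3.81 with vanillin, which do not. That of RPS14 overlapped in BY4741, with 3.68 and 3.04 in SD and 3.64 and 4.09 with vanillin, and not in BY4741(yrr1Δ), with 2.77 and 3.48 in SD and 4.02 and 3.90 with vanillin. In RPL9 the BY4741 values were 1.29 and 0.74 in SD and -0.39 and 0.21 with vanillin, without overlap, so that B was the higher copy in 1 library, and those of BY4741(yrr1Δ) overlapped, with 0.59 and 1.07 in SD and 0.65 and 0.78 with vanillin. The shift of RPS29 rests on few reads, since RPS29A had 1 to 16 counts a library.

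RPL11, chosen after its values were seen, and RPL1 shifted less, by -0.49 and -0.44 in the mean, with SDs within groups of 0.14 and 0.13. The ratio of RPL11 was 1.06 to 1.32 in the 4 SD libraries and 0.33 to 0.97 with vanillin, and that of RPL1 was 0.06 to 0.35 in SD and -0.42 to -0.13 with vanillin. Neither pair overlapped between the media, but this was not particular to them. RPS4 had 0.60 to 0.78 in SD and 0.24 to 0.59 with vanillin, and RPS16 -0.24 to -0.18 and -0.13 to 0.15, also without overlap. RPL11A had a log2 fold change with vanillin of -0.46 in BY4741 (edgeR FDR = 0.18) and -0.51 in BY4741(yrr1Δ) (edgeR FDR = 0.082), and RPL1A of -0.46 (edgeR FDR = 0.15) and -0.37 (edgeR FDR = 0.15), so that no single copy passed. RPL11 and RPL1 both have long identical stretches between their copies, and their counts were split by estimate. Ratios of FPKM in place of counts per kilobase differed by at most 0.006 in the mean over libraries.

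**Figure D4:**
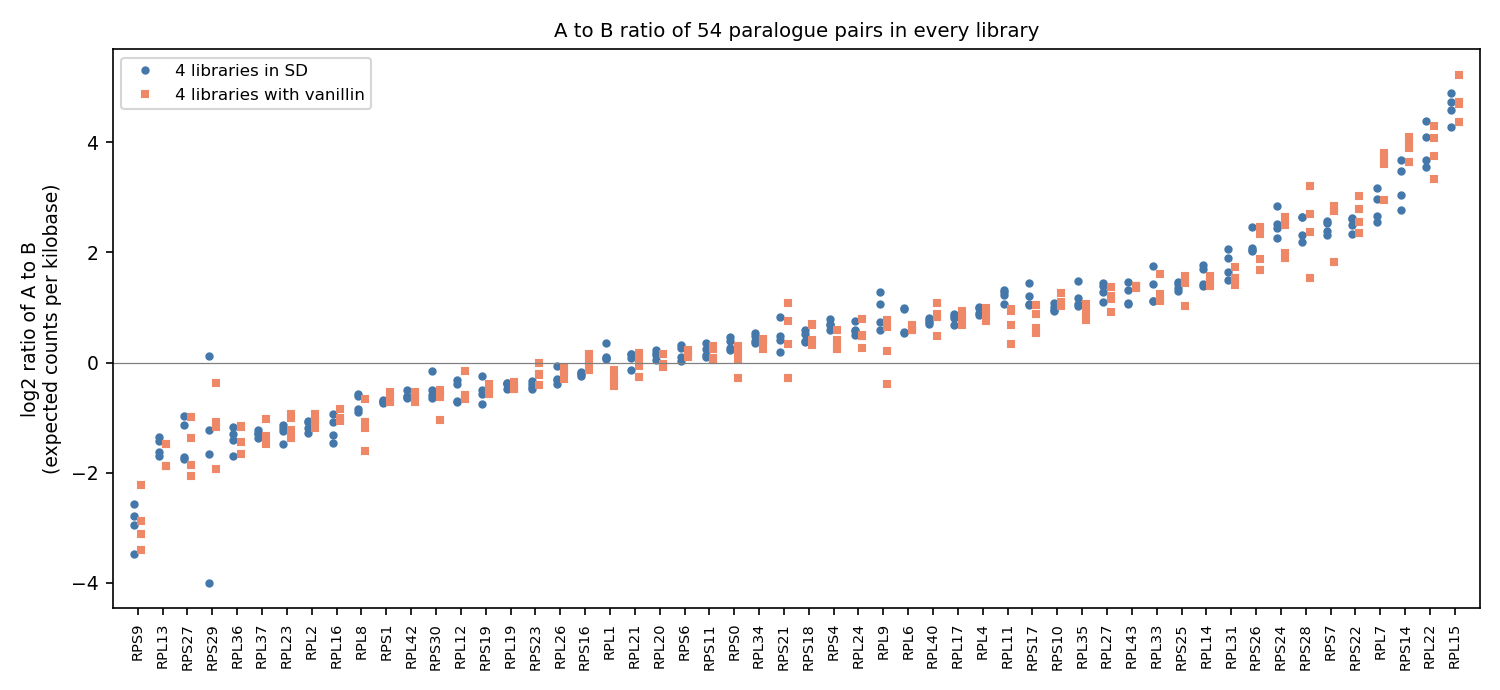
Log2 ratio of the A to the B copy in expected counts per kilobase (y axis) for 54 pairs, ordered by the mean ratio, with blue circles for the 4 SD libraries and orange squares for the 4 vanillin libraries. Ratios run from RPS9, where B is 7.59-fold higher, to RPL15, where A is 25.8-fold higher, and the vanillin values lie below the SD values in RPL11 and RPL1.

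The expected counts are not all whole numbers. A value further than 0.005 from a whole number was found for 18 to 30 of the 130 members in a library (13.8% to 23.1%), against 3.51% to 4.12% of all genes listed. Such a value shows that reads were divided between genes. None of the 18 single-copy members had one in any library, and 46 members had one in at least 1 library.

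The longest identical stretch of a pair set apart the pairs in which every count was non-whole. In 9 pairs all 16 values, 2 copies in 8 libraries, were non-whole, and these pairs share an identical coding run of 158 bases or more, such as 422 in RPL4, 326 in RPL11, 315 in RPL1, 302 in RPL35, 245 in RPL7 and 158 in RPS4. In the other 47 pairs the longest identical run was 152 bases or less. Of these, 14 pairs had between 2 and 6 non-whole values, with 6 in RPS24 (152 bases), RPL14 (147) and RPS23 (80), and 33 pairs had none. Within these 47 the number did not rise steadily with the run, since RPS18 (56 bases) had 4 and RPL15 and RPL19 (116 bases each) had none. RPL18B had whole counts in all 8 libraries and the RPL9 pair had 2 non-whole values of 16, so that the counts of RPL9A and RPL18B were nearly all whole. In the 9 pairs, RPL1, RPL7 and RPL11 included, the ratio of A to B is an estimate whose error the deposited counts do not give.

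**Figure D5:**
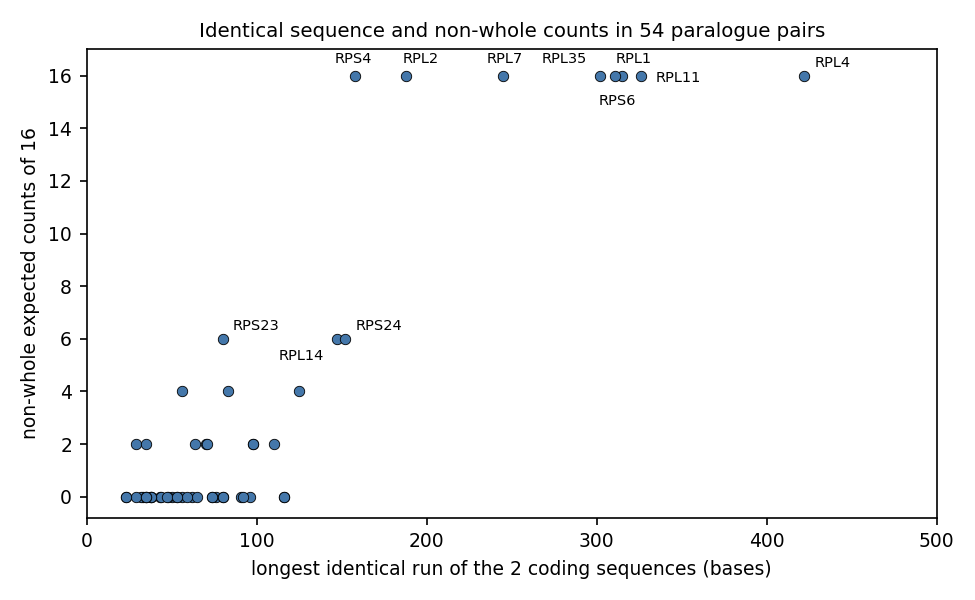
Number of non-whole expected counts among the 16 values of a pair (y axis) against the longest identical run of its 2 coding sequences in bases (x axis), 1 point for each of 54 pairs. The 8 pairs drawn with a run of 158 bases or more are at 16, and every other pair drawn is at 6 or below.

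Members were also grouped by gene structure. With vanillin the median was -0.07 in BY4741 and -0.13 in BY4741(yrr1Δ) for the genes with an intron, and -0.09 and -0.05 for those without. For the 52 genes with a Rap1 core match it was -0.09 and -0.11, and for the others tested -0.07 and -0.10. Single-copy genes had 0.0033 and -0.07, and genes with a paralogue -0.10 and -0.11.

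Other genes of the ribosome pathway were counted in the same fit. The 7 genes of the P stalk and of proteins bound to the ribosome (RPP0 to RPP2B, ASC1, STM1) held no call in any comparison by edgeR's quasi-likelihood test or DESeq2, no unadjusted p under 0.05, and medians from -0.31 to 0.11. Among 12 regulators of ribosomal protein genes 1 was called, the kinase gene SCH9, where 0.618% of all genes were called in the same comparison. It was higher in BY4741(yrr1Δ) than in BY4741 with vanillin by 1.12 ± 0.19 (log2 ± SE, edgeR FDR = 0.041). SFP1, an activator of these genes, had 0.88 ± 0.21 in that comparison (edgeR FDR = 0.089), and RAP1, FHL1 and IFH1 had 0.21, 0.27 and 0.37 (edgeR FDR = 0.54 to 0.75). Of the 12, 9 were above 0 and 3 below, with values from -0.59 for DOT6, a repressor of ribosome assembly genes, to 1.92 for its paralogue TOD6 (edgeR FDR = 0.26 and 0.15), and HMO1, which binds ribosomal protein promoters, had -0.42 (edgeR FDR = 0.20). An unadjusted p under 0.05 was found for 5 of them, where 22.9% of all genes had one. Of 9 dedicated chaperones of ribosomal proteins none was called by edgeR. Unadjusted p was under 0.05 for 3 between the strains with vanillin, 4 with vanillin in BY4741(yrr1Δ), 2 for the interaction and 0 elsewhere. The shares of all genes with such a p were 22.9%, 29% and 20.5% in those 3 comparisons. DESeq2 called 1 of the 9 in each of these 3 comparisons, and 257, 659 and 216 of the 5506 genes tested.

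The 61 tested ribosome assembly genes, whose symbols are a number after NOC, NOG, NOP, NSA, RPF, RRP or UTP, spread further than the ribosomal protein genes. Between the strains with vanillin 59 of 61 were above 0 with a median of 1.03, though none passed in edgeR's quasi-likelihood test, 37 had an unadjusted p under 0.05 (22.9% of all genes) and DESeq2 called 14 (4.67% of all genes). With vanillin 1 fell in BY4741, UTP22 (-1.12, edgeR FDR = 0.041), and 4 rose in BY4741(yrr1Δ), UTP20, UTP8, RRP6 and NOC4 (0.94 to 1.60, edgeR FDR = 0.018 to 0.047), where 0.817% of all genes fell in BY4741 and 4.58% rose in BY4741(yrr1Δ). The median deviation of these genes from their own mean was -0.35 and 0.64 in BY4741 in SD, 0.11 and -0.63 in BY4741(yrr1Δ) in SD, -0.26 and -0.59 in BY4741 with vanillin, and 0.38 and 0.63 in BY4741(yrr1Δ) with vanillin. In BY4741 the media overlap, and the replicates in SD stood far apart in both strains. The medians of the fitted changes with vanillin were -0.63 in BY4741 and 0.73 in BY4741(yrr1Δ), beside -0.08 and -0.10 for the ribosomal protein genes.

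Genes of the mitochondrial ribosome and of stress were counted last. Of 67 mitochondrial ribosomal protein genes 6 fell with vanillin in BY4741(yrr1Δ), MRPS12 most (-1.42, edgeR FDR = 0.011), where 6.63% of all genes fell, and the median of the 67 was -0.42. Of 15 tested genes of stress and slow growth 5 fell with vanillin in BY4741 and 10 in BY4741(yrr1Δ), where 0.817% and 6.63% of all genes fell. Among them was HSP12, a membrane chaperone gene, by -4.02 and -5.72 (edgeR FDR = 0.00025 and 8.1e-05). Their part in the values of the ribosomal protein genes was not tested.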

How the data were processed

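Isolated mRNA was sequenced as 8 libraries on an Illumina HiSeq instrument. For each library the authors deposited expected counts, estimates of the reads from each gene without normalization, and FPKM, fragments per kilobase of effective length scaled to the library. The aligner and counter are not given in the sources used here, and the submitters' processing notes name the build R64. Tables of the authors' own comparisons (group means, log2 ratios, a probability) were not used, and their headers give vanillin as 6 mM where the sample labels, followed here, give 5 mM. Library totals ran from 2195324 to 2453837, and a gene at 0 is not listed. The study's methods call the libraries of a group biological duplicates without saying whether these were separate cultures, and p-values measure only the spread between these libraries.

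Symbols were matched by locus tag to the RefSeq annotation of R64 (5725 of 5782 IDs). Expected counts were rounded and tested with edgeR 4.0.16 in R 4.3.3 (filterByExpr, TMM, quasi-likelihood test, 1 model of the 4 groups), and FDR is the Benjamini-Hochberg adjusted p over 5506 genes. Alternatives used DESeq2 1.42.0, limma 3.58.1 on log2 of FPKM plus 1 or 0.1, library size alone, a replicate block, A and B summed, and each library left out. Scripts were tested on simulated data. Sequences were read from the R64 genome of RefSeq with Python 3.11.15. The 95% intervals are those of the fitted log2 fold changes.

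Members named are those called in a comparison (up to 5 in each direction), or where none was called up to 3 in each direction with the smallest p, the 5 with the highest and the 5 with the lowest mean FPKM, the pairs with the 5 largest and 3 smallest A to B ratios, the 5 whose ratio moved most with vanillin, and the pairs with the most and fewest non-whole counts, where ties were wide. RPL1, RPL11, RPL35 and RPS9 as pairs, and other genes named outside the rule, were chosen after their values were seen. Some members and pairs that the rule names are not reported here. The members and gene lists were chosen with earlier results of these data known.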

Additional observations from a re-analysis of the deposited data

Results flagged for a closer look

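In 7 of the members named, the 2 vanillin libraries of BY4741 moved to the opposite side of the 2 SD libraries from those of BY4741(yrr1Δ), without overlap in either strain. Over all 129 members tested 15 (11.6%) had this pattern, and so did 616 of the 5506 genes tested (11.2%), so that members had it about as often as all genes. None of the 7 differences passed edgeR's test of the interaction of strain and vanillin (FDR from 0.17 to 0.28). The interaction, the log2 fold change with vanillin in BY4741(yrr1Δ) minus that in BY4741, was 0.58 for RPL16B, 0.44 for RPL5 and 0.57 for RPL6A, which were lower with vanillin in BY4741 and higher in BY4741(yrr1Δ). It was -0.82 for RPL28, -1.14 for RPL29, -0.82 for RPL43A and -0.89 for RPS30A, which were higher with vanillin in BY4741 and lower in BY4741(yrr1Δ).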

How the results depend on the processing

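The called counts kept their values under DESeq2's size factors, library size alone, TMM without the ribosomal protein genes, no filter on low counts and DESeq2, in all 5 comparisons. With vanillin against SD in BY4741 the count of 1 became 0 at the limits of the study, 0 with A and B summed and 0 to 1 with a library left out. In BY4741(yrr1Δ) the count of 1 became 0 at the limits of the study, 3 with limma on FPKM plus 1 (RPL18B, and RPL8B and RPS0B above 0), 1 with plus 0.1 (RPS0B instead of RPL18B), 0 with only the groups compared, 0 with A and B summed and 0 to 8 with a library left out. Between the strains with vanillin the count of 0 became 1 (RPL28) with only the groups compared and 0 to 1 with a library left out, and for the interaction it was 0 to 4 with a library left out. For vanillin in BY4741(yrr1Δ), limma on FPKM plus 1 called 2.33% of members and 11.6% of all genes. With FPKM plus 0.1 it called 0.775% of members and 11.2% of all genes. Replicate numbers gave no pairing that held across groups. Correlations of the replicate differences between groups were -0.58 to 0.18 over all genes and -0.52 to 0.31 over the members, the lowest between the strains in SD. There, replicate 1 of BY4741 and replicate 2 of BY4741(yrr1Δ) had a Pearson correlation of 0.9838 over all genes, and the other 2 libraries 0.9707. Replicates of the same strain in SD had 0.9634 (BY4741) and 0.9536 (BY4741(yrr1Δ)), and the cause was not tested. A replicate block gave 0 calls for vanillin in each strain and changed no other count of members. A crossed pairing of the strains in SD, added after seeing the data, called 0 members and 75 genes in all.

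Medians moved with a library left out: from -0.32 to 0.11 between the strains in SD, from -0.29 to 0.14 for vanillin in BY4741(yrr1Δ) and from -0.24 to 0.20 for the interaction. With limma on FPKM plus 1 and plus 0.1 the median was 0.062 and 0.062 between the strains with vanillin, 0.11 and 0.11 for vanillin in BY4741(yrr1Δ), and 0.30 and 0.30 for the interaction, and with library size alone it was 0.19 for the interaction. RPS28A in SD turned to -0.11 without replicate 1 of BY4741(yrr1Δ) and ran up to 0.77 with another library left out. The share of FPKM differed by -3.17 points between the strains in SD, 1.71 with vanillin, -2.35 for vanillin in BY4741 and 2.53 in BY4741(yrr1Δ). With a library left out, the share of counts differed by -2.44 to -0.32 points between the strains in SD and by -0.81 to 1.32 for vanillin in BY4741(yrr1Δ). Over all genes, the calls between the strains with vanillin were 34, 257 by DESeq2, 317 with only the groups compared and 12 with the block. For vanillin in BY4741 they were 173, 290, 268 and 99, for vanillin in BY4741(yrr1Δ) 617, 659, 284 and 400, and for the interaction 5, 216 by DESeq2 and 0 with the block. The cause of these changes was not tested. With 2 libraries a group, the 95% intervals of the members had a median half-width of 0.45 (log2) in the comparisons of 2 groups and 0.63 for the interaction. Over all genes these half-widths were larger, 0.54 to 0.55 and 0.77. Such widths limit what can be said of small changes.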
